A study of Mus musculus with 16 samples.

Results

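The genotype dependence of the ethanol response was read from all 16 of the 16 liver RNA-sequencing libraries of the series, as a difference of 2 differences. For each gene the change from control to ethanol in wild-type libraries was subtracted from the same change in knockout libraries, on the log2(value + 1) scale, where a value is a normalised read count. A negative difference therefore means a smaller rise or a larger fall with ethanol in the knockout, and a positive one the opposite. The comparison covered the 13256 of 27288 genes whose mean was at least 10 normalised reads over the 16 libraries. Of these, 46 genes passed the test of the difference, and they are described here by whether the wild-type response was blunted, lost, reversed or stronger in the knockout.

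All mice are labelled C57BL/6, with an age of 8 to 10 weeks. The groups were wild type on control (Drp1WT CDM), wild type on ethanol (Drp1WT EDE), knockout on control (Drp1KO CDM) and knockout on ethanol (Drp1KO EDE), with 4 libraries each. Knockout libraries carry the genotype label L-Dnm1l KO, a liver-specific deletion, and ethanol was given by the Gao-Binge model. The promoter or Cre line that drives the deletion and the deleted exons are not given in the labels. Whether the 4 libraries of a group are 4 animals is not stated in the labels, and p-values here cover only the spread among libraries, which may be technical.

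DRP1, encoded by Dnm1l, is the dynamin-related GTPase that divides mitochondria. In the Gao-Binge model mice are fed an ethanol diet and then receive a single large oral dose, so livers show both chronic and acute responses. Hepatocytes answer ethanol by inducing drug-metabolising enzymes through nuclear receptors such as CAR, antioxidant enzymes through the transcription factor NRF2, and stress and immediate early genes.

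Depth was even, at 11425136 to 13864862 gene-assigned reads per library. Total Dnm1l reads overlapped in all groups (539 to 709 normalised reads in knockout control libraries and 581 to 707 in wild-type ones) and, as reads outside deleted exons may persist, it gives no check of the labels. Ethanol library 1 of the knockout held pancreas transcripts, with Ctrb1 at 2563 normalised reads against 4.81 or fewer elsewhere, and library 4 held the highest summed erythroid markers, 6188 against 2980.1 or fewer elsewhere, and the fat gene Cfd at 120.3 against 69.2 or fewer. In both ethanol groups libraries 1 and 2 deviated from 3 and 4 in a shared way. Hepatocyte markers were abundant in every library, with 10 of them summing to between 1224930 and 2352890 normalised reads. In bulk tissue, fewer cells of a type and less RNA per cell cannot be told apart.

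The difference of the ethanol effects passed the test for 46 genes, 0.347% of those tested, with 27 differences negative (0.204%) and 19 positive (0.143%). The test was limma's moderated test over all 16 libraries, two-sided, with a Benjamini-Hochberg adjusted p below 0.05, and all adjusted p-values below are from it unless another tool is named. By the calls for ethanol within each genotype, 34 of the 46 responses were lost in the knockout (called in wild type and not in knockout) and 8 were blunted (called in both, same direction, smaller). Another 1 was reversed and 3 were gained, meaning called only in the knockout, while 0 were stronger. Lost and blunted responses thus made up 42 of 46 genes, or 91.3%. The exact 95% interval, 79.2% to 97.6%, covers counting error only. It takes genes as independent, which they are not, since they share the same libraries. Over all genes tested, 3067 were called for ethanol in wild type only and 578 in knockout only. The change was smaller in the knockout for 62.8% of all genes tested, so lost calls outnumbered gained ones without any choice by the difference. The share among the 46 is therefore a description and not a separate result about them. The lost responses were 17 rises and 17 falls in wild type, and the blunted ones 7 rises and 1 fall.

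A lost call is not by itself an absent response. For 27 of the 34 lost genes the 95% interval of the knockout change lay within 2-fold in either direction, and for the other 7 it reached further. In 15 of the 34 the knockout estimate had the sign opposite to the wild-type change. Sorting the same 46 genes by the ratio of the estimates instead of the calls gave 28 lost, 9 blunted and 9 reversed. The log2 scale also matters for low genes: in normalised reads, the change of the group means was smaller in the knockout for 39 of the 42 lost or blunted genes and larger for Cbr3, Ifi27 and Orm3 (a comparison chosen after the values were seen).

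**Figure D1:**
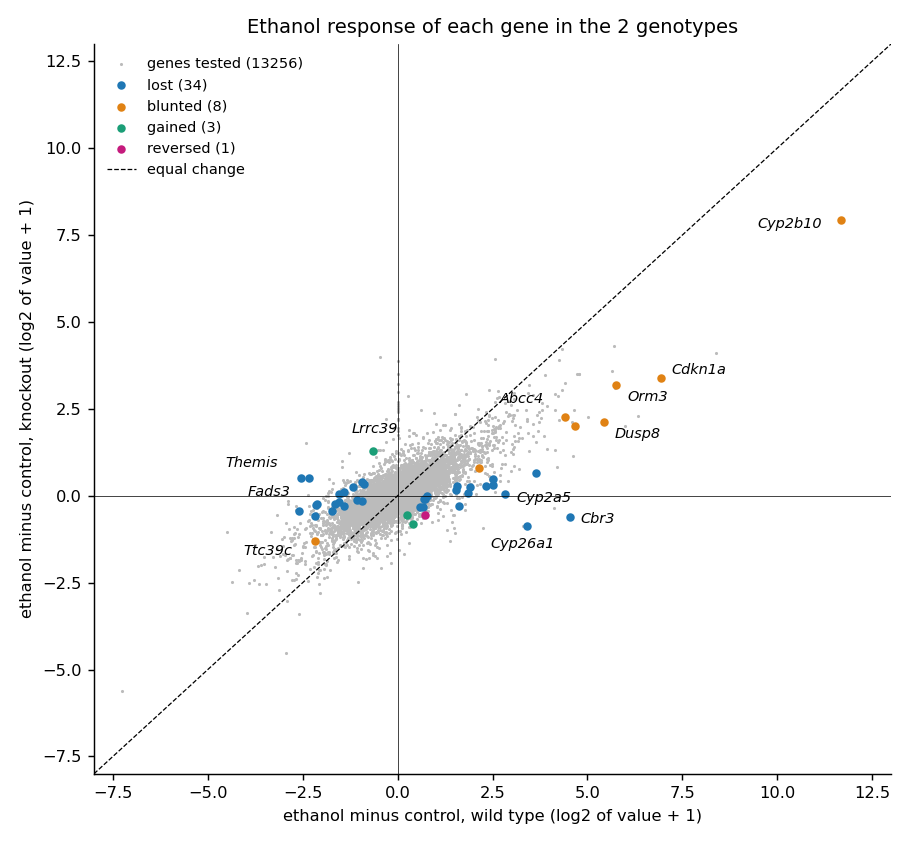
Log2 change from control to ethanol in wild type (horizontal axis) and in knockout (vertical axis) for the 13256 genes tested (grey) and the 46 genes whose change differed by genotype (coloured by class). Most coloured points lie between the dashed line of equal change and the horizontal line of no change in the knockout, with 34 lost and 8 blunted responses.

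Among the lost rises, drug-metabolising and antioxidant enzymes stood first. Cyp2a5 (ENSMUSG00000005547, chromosome 7, 26835305 to 26843548, GRCm38), a cytochrome P450 that oxidises nicotine and coumarin, had 2056, 2343, 2674 and 2553 normalised reads in the wild-type control libraries and 15471, 22664, 18875 and 12750.2 in the wild-type ethanol ones. In the knockout it had 15248, 11075, 5403 and 8976 on control and 8842, 10368, 9792 and 10272 on ethanol. Every wild-type control library was thus lower than all others, and the 2 knockout groups overlapped. Ethanol raised Cyp2a5 7.11-fold in wild type, and the knockout estimate was 1.03-fold (log2 0.04, 95% interval -0.45 to 0.54). The difference was -2.79 ± 0.33 (log2 ± SE, adjusted p = 0.00264). Reads of Cyp2a5 and its near-identical neighbour Cyp2a4 may have been divided between them, and the values for Cyp2a4 were 4.12 in wild type and -0.35 in knockout, a difference that did not pass the test.

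Nqo1 (ENSMUSG00000003849, chromosome 8, 107388225 to 107403206), a quinone reductase and a classical NRF2 target, had 72.0, 57.7, 66.9 and 50.9 normalised reads in wild type on control and 209, 235, 279 and 211 on ethanol. The knockout values were 287, 179.9, 196 and 205 on control and 254, 303, 272 and 198 on ethanol. Only the wild-type control libraries were low. The rise was 3.74-fold in wild type and 1.19-fold in knockout (log2 0.25, interval -0.10 to 0.60), and the difference was -1.65 ± 0.24 (log2 ± SE, adjusted p = 0.0105).

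Cbr3 (ENSMUSG00000022947, chromosome 16, 93683215 to 93690990), a carbonyl reductase, was close to absent in wild type on control, at 1.97, 6.96, 3.40 and 2.08 normalised reads, and reached 87.2, 117, 173 and 49.5 on ethanol. In the knockout it had 705, 398, 66.3 and 183 on control and 123, 126, 230.4 and 172 on ethanol, a wide and overlapping spread. The wild-type change was 4.53 and the knockout change -0.62 on the log2 scale, with a knockout interval from -1.79 to 0.55 that allows a clear fall or a modest rise. The difference was -5.15 ± 0.78 (log2 ± SE, adjusted p = 0.0116), and since it rests on few reads in the wild-type controls it was -5.44 with a pseudocount of 0.25 and -4.39 with one of 4.

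Raet1d (ENSMUSG00000078452, chromosome 10, 22360552 to 22374139) encodes a ligand of the NKG2D receptor that lymphocytes use to sense stressed cells. It had 156, 76.5, 83.9 and 72.7 normalised reads in wild type on control and 559, 562, 507 and 494 on ethanol. The knockout values were 226, 217, 177 and 293 on control and 347, 382, 322 and 226 on ethanol. All knockout libraries lay between the wild-type groups. The rise was 5.68-fold in wild type and 1.40-fold in knockout, with a difference of -2.03 ± 0.30 (log2 ± SE, adjusted p = 0.0116). Its neighbour Raet1e, another NKG2D ligand whose annotated span overlaps that of Raet1d, had changes of 2.34 and 0.30 (adjusted p = 0.0450). Ethanol libraries 1 and 2 of the 2 genotypes deviated together, as did libraries 3 and 4. With the number of the ethanol libraries as a block, the adjusted p of Raet1e was 0.0584. The strand setting of the counting is not given in the sources used here and these genes are near-identical, so how reads were divided between them is uncertain.

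**Figure D2:**
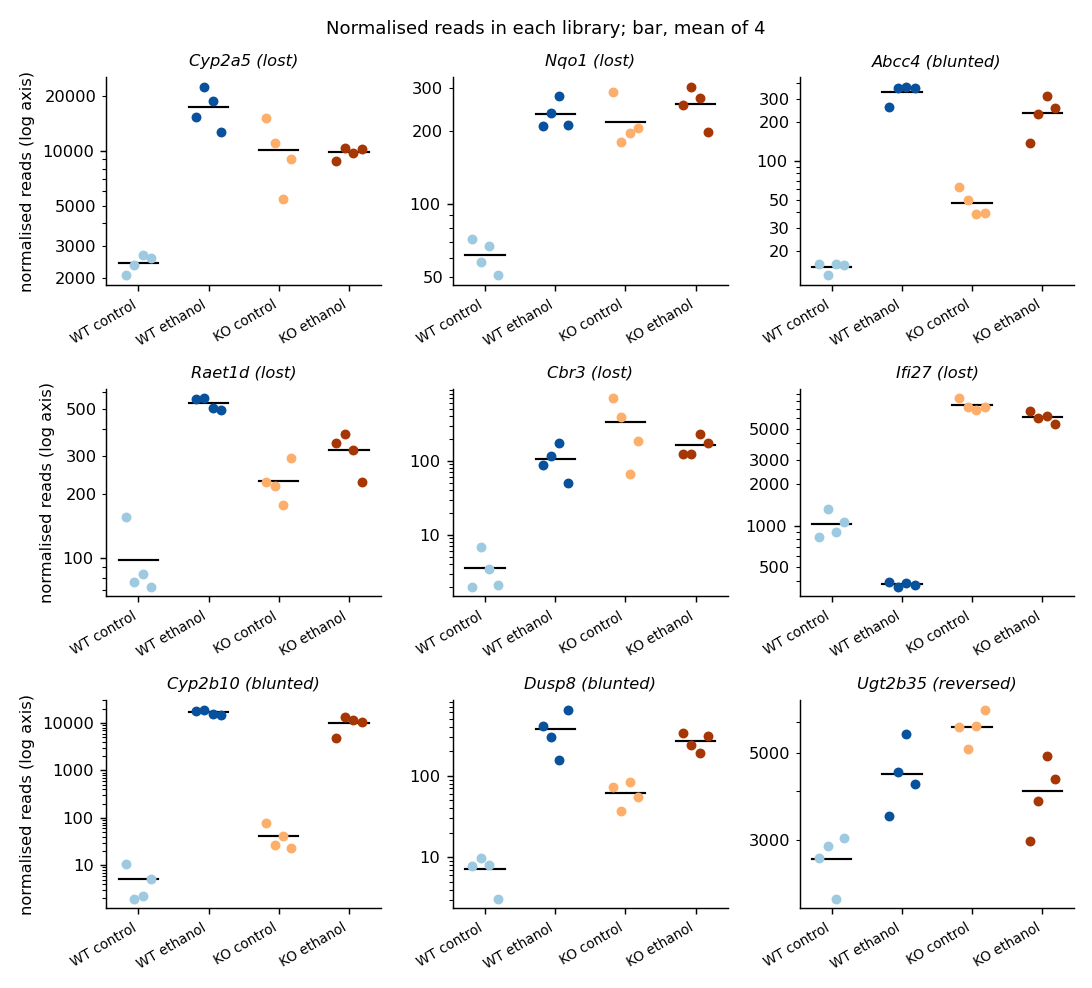
Normalised reads (log axis) in each library of the 4 groups for the 8 genes whose difference stayed past the threshold in all 16 fits that left out 1 library, and for Ugt2b35, the reversed response; bars are means of 4 libraries. For Cyp2a5 and Nqo1 only the wild-type control libraries are low, with means of 2406 and 61.9.

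Other lost rises included more detoxification genes. Gsta2, a glutathione transferase, rose 12.5-fold in wild type, from 77.9, 23.9, 38.6 and 34.3 to 482, 755, 427 and 425 normalised reads. Its knockout values of 440.3, 287, 137 and 314 on control and 429, 481, 559 and 304 on ethanol overlapped (difference -2.97 ± 0.49, log2 ± SE, adjusted p = 0.0163). Ephx1, microsomal epoxide hydrolase, rose 2.92-fold in wild type against 1.13-fold in knockout. Tuba8, an alpha-tubulin, went from a mean of 15.1 to 87.6 normalised reads in wild type and from 84.2 to 104 in knockout. Slc48a1, a haem transporter, rose 1.72-fold in wild type, from values between 449 and 505 to values between 783 and 908, and the knockout change was -0.02 with an interval of -0.24 to 0.20. Rcan1, an inhibitor of calcineurin, rose 3.64-fold against 1.06-fold, and Nop58, a core protein of box C/D small nucleolar ribonucleoproteins, 2.93-fold against 1.22-fold. Smaller wild-type rises, of 1.51-fold to 1.66-fold, were lost for Entpd5, Kti12, Znfx1 and Eef1e1, and the non-coding Mirt2 rose 3.05-fold in wild type, with a knockout estimate of -0.31 on the log2 scale. With the block of same-numbered ethanol libraries the differences of Ephx1, Rcan1, Nop58, Eef1e1 and Mirt2 missed the threshold, with adjusted p-values of 0.0529, 0.0529, 0.0586, 0.0625 and 0.0606.

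Cyp26a1 (ENSMUSG00000024987, chromosome 19, 37697798 to 37701536), the enzyme that clears retinoic acid, had the second largest negative difference among the 46 genes. It had 212, 81.5, 126 and 52.9 normalised reads in wild type on control and 676, 665, 1460.2 and 2262 on ethanol. The knockout had 404, 384, 77.3 and 355 on control and 49.2, 102, 209.8 and 345 on ethanol. Wild-type groups were separate and knockout groups overlapped widely. The changes were 3.40 and -0.88, the knockout interval ran from -2.19 to 0.43, and the difference was -4.28 ± 0.88 (log2 ± SE, adjusted p = 0.0450). This call was kept in 2 of 16 fits that left out 1 library (adjusted p from 0.0164 to 0.116).

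Blunted responses kept their direction and lost part of their size. Cyp2b10 (ENSMUSG00000030483, chromosome 7, 25897620 to 25926624), the standard reporter of CAR activity, went in wild type from 10.8, 1.99, 2.27 and 5.19 to 18007, 19134, 15604 and 15001 normalised reads. In the knockout it went from 77.7, 26.5, 41.4 and 23.4 to 4731, 13265, 11816 and 10559.5. All 4 groups were separate from each other. The changes were 11.67 and 7.93 on the log2 scale, and the difference was -3.74 ± 0.59 (log2 ± SE, adjusted p = 0.0147), or -3.98 and -3.15 with pseudocounts of 0.25 and 4.

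Abcc4 (ENSMUSG00000032849, chromosome 14, 118482692 to 118706219), an efflux transporter of bile acids and conjugates, had 15.8, 12.9, 15.9 and 15.6 normalised reads in wild type on control and 263, 368, 375 and 368 on ethanol. The knockout values were 62.2, 49.2, 38.7 and 39.6 on control and 138, 231, 319 and 256 on ethanol. Ethanol separated the groups in both genotypes. The rise was 21.3-fold in wild type and 4.77-fold in knockout, and the difference was -2.16 ± 0.31 (log2 ± SE, adjusted p = 0.0105). Knockout controls were above wild-type controls, while the 2 ethanol groups overlapped.

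Dusp8 (ENSMUSG00000037887, chromosome 7, 142079490 to 142095843), a phosphatase of stress-activated MAP kinases, rose from 7.89, 9.94, 7.94 and 3.11 to 405, 297, 154 and 647 normalised reads in wild type. The knockout rise was from 72.5, 36.9, 84.7 and 54.9 to 331, 240.1, 192 and 312. The ethanol groups overlapped and the control groups did not. The changes were 5.43 and 2.12, with a difference of -3.30 ± 0.54 (log2 ± SE, adjusted p = 0.0163).

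The other blunted rises had fewer stable calls. Cdkn1a, the p21 cell cycle inhibitor, went from 18.7, 7.95, 20.4 and 13.5 to 3567, 3769, 895 and 999 normalised reads in wild type, and from 128, 65.3, 138 and 119.8 to 1269, 2345, 605 and 975 in knockout. Libraries 1 and 2 were the highest of each ethanol group. The changes were 6.93 and 3.39 (difference -3.53 ± 0.68, log2 ± SE, adjusted p = 0.0356), kept in 5 of 16 fits without 1 library. Gstm3, a glutathione transferase, rose 25.6-fold against 4.04-fold, and Ier5, an immediate early gene, 4.40-fold against 1.74-fold. Orm3, an acute-phase glycoprotein of the orosomucoid family, rose 54.4-fold against 9.17-fold, yet the ethanol means were 801 and 1006 normalised reads, so the smaller fold went with a higher control level of 114 against 11.7. Its call was kept in 2 of 16 fits. Ttc39c was the single blunted fall, with a mean going from 9209.8 to 2073 normalised reads in wild type and from 5971 to 2439 in knockout. Its difference was 0.87 ± 0.18 (log2 ± SE, adjusted p = 0.0450), and the adjusted p was 0.0543 with the block of same-numbered ethanol libraries.

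The lost falls included interferon-inducible and leukocyte genes. Ifi27 (ENSMUSG00000064215, chromosome 12, 103434211 to 103440239), an interferon-inducible mitochondrial protein, fell in wild type from 826, 1326, 896 and 1059.8 to 389, 360.0, 386 and 371 normalised reads. In the knockout it had 8409, 7231, 6926 and 7274 on control and 6769, 6079, 6252 and 5432 on ethanol. The knockout libraries were higher than every wild-type one, and their ethanol group still lay below their control group without overlap. The changes were -1.42 and -0.28 (interval -0.54 to -0.02), and the difference was 1.14 ± 0.17 (log2 ± SE, adjusted p = 0.0116). In normalised reads the fall of the means was larger in the knockout, from 7459.9 to 6133, than in wild type, from 1027 to 377. The neighbouring Ifi27l2a, also interferon-inducible, changed by -2.16 and -0.26, from a mean of 49.1 to 10.0 in wild type and from 183 to 154 in knockout (adjusted p = 0.0235, kept in 14 of 16 fits).

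Lyz2, the lysozyme of macrophages and neutrophils, had 340.2, 663, 286 and 341 normalised reads in wild type on control and 113, 124, 175 and 174 on ethanol. The knockout had 508, 645, 581 and 756 on control and 751, 588, 666 and 681 on ethanol, with overlap. The changes were -1.42 and 0.12, and the difference was 1.54 ± 0.31 (log2 ± SE, adjusted p = 0.0417, kept in 5 of 16 fits). Cx3cr1, the fractalkine receptor of monocyte-derived cells, had 17.7, 17.9, 10.2 and 12.5 normalised reads in wild type on control and 2.46, 1.17, 0.929 and 1.83 on ethanol, against 19.9 to 30.6 and 13.8 to 21.2 in the knockout. Themis, a T-cell signalling protein, went from between 7.95 and 26.1 to between 0.916 and 2.79 in wild type, and the knockout libraries ranged from 12.4 to 31.2 on control and from 19.8 to 49.0 on ethanol. These 2 genes had 1 to 3 reads in each wild-type ethanol library, so the size of their differences, 2.15 and 3.07, depended on the pseudocount: with one of 4 they were 1.33 and 2.20 and neither passed the test (adjusted p = 0.0760 and 0.0658). With the block of same-numbered ethanol libraries Lyz2, Cx3cr1 and Themis each had an adjusted p of 0.0543.

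Most Kupffer cell and macrophage markers moved with these genes, and monocyte markers less evenly. The 13 Kupffer cell and macrophage markers together had between 2944 and 6663 normalised reads in wild type on control and between 1089 and 1683 on ethanol. In the knockout they had 7072 to 11271 on control and 5877 to 7574 on ethanol. The groups overlapped there through control library 1 alone, as the other controls had 9916 or more. Of the 12 markers tested, 10 fell in wild type (19.0% of all genes did) and 2 in knockout (9.01%). The log2 change was smaller in the knockout for 12 of 12, against 62.8% of all genes tested. The median change was -1.40 against -0.39, but 0 of the 12 passed the test of the difference. In normalised reads the group median of the sum fell further in the knockout, from 10258 to 6245, than in wild type, from 3167 to 1373. Vsig4, a complement receptor of resident macrophages, had 147, 320.1, 127 and 165 normalised reads and then 55.3, 31.5, 64.1 and 59.6 in wild type, and 198, 339, 297 and 342 and then 242, 252, 213 and 185 in knockout (difference 1.41 ± 0.38, log2 ± SE, adjusted p = 0.120). Wild-type control library 2 was the highest of its group for Vsig4, Lyz2 and the summed markers. Of 8 tested monocyte and lipid-associated macrophage markers, 4 fell in wild type (50%, against 19.0% of all genes). In the knockout 0 fell, against 9.01% of all genes, and 1 rose (12.5%, near the 10.2% of all genes). The median changes were -1.19 and -0.33, and Cx3cr1 alone passed the test of the difference. The summed level of all 11 listed overlapped between control and ethanol in wild type, at 627 to 923 and 506 to 867 normalised reads. It overlapped in knockout too, at 525 to 1211 and 755 to 1102. Most of each sum came from Spp1 (214 to 512 in wild-type libraries), also on the cholangiocyte list, and Cd9 (150 to 367). These sums thus say little of the scarcer members. T and NK cell markers were sparse: 12 of them summed to between 54.2 and 86.5 normalised reads in wild type on control, 21.0 and 35.3 on ethanol, 117 and 273 in knockout on control and 72.2 and 90.3 on ethanol, with Cd8b1 and Ncr1 at 0 in most wild-type libraries. The part of cell numbers in the differences of Lyz2, Cx3cr1, Themis and the interferon-inducible genes was not tested.

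Other lost falls included genes with roles in lipid handling, put together here after their values were seen. Ppara (ENSMUSG00000022383, chromosome 15, 85734983 to 85802819), the nuclear receptor that drives fatty acid oxidation, fell in wild type from 1487, 1802, 1600.5 and 1477 to 369, 536, 845 and 539.8 normalised reads. The knockout had 499, 773, 755 and 1045 on control and 916, 853, 662 and 656 on ethanol. Knockout libraries of both groups were below the wild-type controls. The changes were -1.53 and 0.04 (interval -0.43 to 0.51), and the difference was 1.57 ± 0.31 (log2 ± SE, adjusted p = 0.0417, kept in 2 of 16 fits). The size depended on the ethanol libraries, at 2.08 with libraries 1 and 2 and 1.06 with libraries 3 and 4, and the adjusted p was 0.0543 with the block of same-numbered ethanol libraries.

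Elovl2, which elongates polyunsaturated fatty acids, fell from 10825, 10572, 13395 and 11514 to 2947, 2693, 4265 and 4187 normalised reads in wild type, and from 6788, 6945, 5264 and 5739.8 to 5191, 3463, 4818 and 5032 in knockout. Both pairs of groups were separate, but the knockout fall was not past the threshold after adjustment (log2 -0.43, adjusted p = 0.0784). The difference was 1.31 ± 0.23 (log2 ± SE, adjusted p = 0.0306, kept in 12 of 16 fits). Fads3, a member of the fatty acid desaturase family, changed by -2.35 and 0.51, and Pltp, the phospholipid transfer protein of plasma, by -2.13 and -0.24. For Pltp, wild-type control library 3 stood apart at 1165 normalised reads, while the other 3 had 437 to 465. Without that library the difference was 1.55 (adjusted p = 0.0163), against 1.89 with it, and the call was kept in 7 of 16 fits.

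The remaining lost falls had various roles. C6, a component of the membrane attack complex, fell from a mean of 3928 to 901 normalised reads in wild type and from 3579 to 2305 in knockout, where the fall missed the threshold (log2 -0.58, adjusted p = 0.0822). By the ratio of the estimates it was blunted rather than lost, and its difference had an adjusted p of 0.0543 with the block of same-numbered ethanol libraries. The tight junction protein gene Ocln and Tbc1d4, a Rab GTPase-activating protein of insulin signalling, changed by -0.89 and -0.94 in wild type against 0.34 and 0.40 in knockout. March8, Zbtb45, the pseudogene Mug-ps1 and the non-coding 4732419C18Rik fell 1.92-fold to 3.14-fold in wild type, with knockout estimates between -0.22 and 0.24 on the log2 scale. With that block March8 had an adjusted p of 0.0584.

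A reversal, with calls of opposite direction in the 2 genotypes and a difference past the threshold, was found for Ugt2b35 (ENSMUSG00000035811, chromosome 5, 87000860 to 87013275), a glucuronosyltransferase. It rose in wild type from 2697, 2901, 2123 and 3028 to 3458, 4460.3, 5586 and 4169 normalised reads and fell in knockout from 5816, 5134, 5873 and 6450.3 to 2980.1, 3766, 4910.4 and 4295. The groups were separate in both genotypes, and the 2 ethanol groups overlapped. The changes were 0.71 and -0.56, and the difference was -1.27 ± 0.23 (log2 ± SE, adjusted p = 0.0306, kept in 10 of 16 fits). Members of the Ugt2b family are near-identical in part, so its reads are uncertain. Calls of opposite direction were also found for Rab34, Ehhadh, Exoc6b and Zfp667, whose differences did not pass (adjusted p from 0.0626 to 0.0874). Ehhadh, a peroxisomal oxidation enzyme and PPARA target, had 3986, 4527, 3654 and 3496 and then 2946, 3005, 2923 and 3157 normalised reads in wild type. In the knockout it had 3683, 4193, 2628 and 3569 and then 5304, 5139.9, 4225 and 4231.

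Gained responses numbered 3. Lrrc39 rose in the knockout from 10.4, 8.52, 15.7 and 11.7 to 21.6, 22.5, 34.8 and 40.4 normalised reads, while in wild type it went from 20.7, 17.9, 15.9 and 12.5 to 8.60, 10.5, 10.2 and 11.9. The wild-type groups were separate as well, although that fall was not past the threshold, and the changes were -0.64 and 1.28 (difference 1.91 ± 0.38, log2 ± SE, adjusted p = 0.0417). Slc35d1, a transporter of nucleotide sugars into the endoplasmic reticulum, fell in the knockout from a mean of 2648 to 1823 and stood at 1904 and 2247 in wild type. Car2, carbonic anhydrase 2, fell in the knockout from 146, 160.0, 103 and 190.0 to 85.6, 80.7, 76.0 and 90.5 normalised reads, against a change of 0.41 in wild type. By the ratio of the estimates these 3 genes were reversed, and each call was kept in 3 or 4 of 16 fits. Car2 had an adjusted p of 0.0607 with the block of same-numbered ethanol libraries.

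Where the genotypes stood on each condition differed between these genes. Of the 46, 23 were higher and 11 lower in the knockout on control alone, 5 were higher and 1 lower on ethanol alone, and 6 differed on both. Of all genes tested, 11.6% differed by genotype on control (6.40% higher and 5.24% lower) and 9.88% on ethanol (6.13% higher and 3.75% lower). Among the 42 lost or blunted genes, the knockout control mean lay between the wild-type control and ethanol means for 31 (73.8%), beyond the ethanol mean for 6 and on the far side of the control mean for 5. For all 5032 genes called for ethanol in wild type those shares were 65.0%, 4.75% and 30.2%. These values share the wild-type control libraries with the difference itself and are given as a description, a sorting chosen after the values were seen. The 5 on the far side were Ifi27, Ifi27l2a, Cx3cr1, Themis and Lyz2. Cbr3, Kti12, Tbc1d4, Entpd5, Znfx1 and Mirt2 were beyond the ethanol mean.

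**Figure D3:**
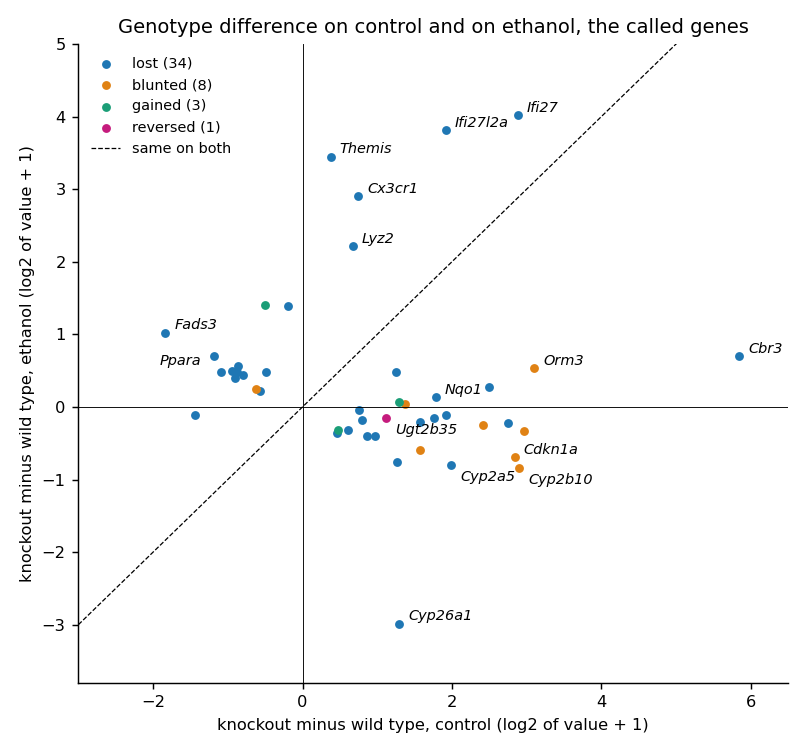
Log2 difference between knockout and wild type on control (horizontal axis) and on ethanol (vertical axis) for the 46 genes, coloured by class; the dashed line marks equal differences. Cbr3 lies furthest to the right on control, and most genes lie closer to 0 on ethanol than on control; those further from 0 on ethanol include Ifi27, Ifi27l2a, Themis, Cx3cr1, Lyz2, C6, Cyp26a1 and Lrrc39.

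The gene lists give the setting of the called genes, by counts and medians without a test. Of 32 tested members of the NRF2 list, 20 rose and 3 fell with ethanol in wild type, where 18.9% of all genes rose and 19.0% fell. In the knockout 8 rose and 4 fell, where 10.2% of all genes rose and 9.01% fell. The median change was 1.39 in wild type and 0.11 in knockout, against -0.01 and -0.01 over all genes tested. On control 18 of the 32 were higher in the knockout and 0 lower, where 6.40% of all genes were higher. The median of knockout minus wild type was 0.75 on control. On ethanol it was -0.03, with 2 members higher and 1 lower, near the shares of all genes (6.13% and 3.75%). The difference passed the test for 6 members, all negative (Nqo1, Abcc4, Cbr3, Gsta2, Gstm3 and Ephx1), where 0.347% of all genes passed. Its median over the 32 members was -0.82. Other members changed in both genotypes, such as Hmox1, haem oxygenase 1, with 3.38 and 2.47. The regulator gene itself, Nfe2l2, had changes of 0.04 and 0.03. The list's summed level was 43096 to 50519 normalised reads in wild type on control, 97082 to 121224 on ethanol, and 61224 to 114602 and 87498 to 98991 in knockout, so the knockout groups overlapped.

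NRF2 binds the antioxidant response element, so promoters were searched for its core, TGACNNNGC, on both strands in the 250 bases before each RefSeq start site of GRCm38.p6. Of the 46 called genes 37 matched a promoter, and 5 of these held the core (13.5%: Abcc4, Eef1e1, Fads3, Slc35d1 and Znfx1), against 11.5% of 27025 gene symbols. The core of the interferon-stimulated response element was found in 0 of 37, against 3.46% of symbols. A match is a description of letters and not a site. The promoters of Abcc4 and Nqo1, NRF2-list genes with a blunted and a lost rise, are shown 5′ to 3′ on the minus strand, with the match in capitals; in this window Nqo1 holds no match.
Abcc4, chr14:118706220-118706469: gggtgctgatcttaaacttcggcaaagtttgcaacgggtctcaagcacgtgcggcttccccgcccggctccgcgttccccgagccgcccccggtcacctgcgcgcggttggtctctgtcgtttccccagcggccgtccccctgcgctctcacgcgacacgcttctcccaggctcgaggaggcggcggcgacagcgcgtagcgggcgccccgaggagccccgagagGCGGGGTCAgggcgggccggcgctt
Nqo1, chr8:107403206-107403455: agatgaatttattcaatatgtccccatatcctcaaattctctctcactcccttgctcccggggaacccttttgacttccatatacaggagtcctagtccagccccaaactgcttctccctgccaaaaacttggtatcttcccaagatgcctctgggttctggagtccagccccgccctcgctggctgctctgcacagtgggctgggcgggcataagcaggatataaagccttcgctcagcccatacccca

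Xenobiotic cytochrome P450 genes had a smaller median in the knockout too, 1.03 in wild type and 0.35 in knockout over 31 members. In wild type 19 rose (61.3%, against 18.9% of all genes) and 2 fell, and in knockout 8 rose (25.8%, against 10.2%) and 1 fell. Only Cyp2a5 and Cyp2b10 passed the test of the difference, both negative. Among those that did not, Cyp1a2, the caffeine-metabolising enzyme of pericentral hepatocytes, had 1.54 and 0.35, and Por, the electron donor of these enzymes, rose in both with 1.99 and 1.36. Of 30 acute-phase genes 12 rose in wild type (18.9% of all genes did) and 4 in knockout (13.3%, near the 10.2% of all genes), with medians of 0.79 and 0.16, and Orm3 alone passed. Their summed level was high in wild-type ethanol libraries 1 and 2, at 1963080 and 1625810 normalised reads. Library 4 had 662973, and library 3, at 402485, was below every wild-type control. The median difference of this list was -0.95, and it ran from -1.44 without wild-type ethanol library 3 to -0.60 without knockout control library 3. Lcn2, lipocalin 2, changed by 5.98 in wild type with a difference of -3.98 ± 1.34 (log2 ± SE, adjusted p = 0.210). The metallothionein gene Mt2 had 8.38 and 4.10 with a wide spread: its wild-type ethanol values were 27809.8, 20111, 2153 and 11213 normalised reads, and the difference was -4.28 ± 1.17 (log2 ± SE, adjusted p = 0.123).

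Many genes of the integrated stress response and many immediate early genes rose in both genotypes. Of 26 genes of the integrated stress response, the program that limits translation and raises ATF4 targets, 21 rose in wild type and 13 in knockout, where 1 fell. The medians were 1.78 and 1.11, and 0 members passed the test of the difference. Other stress lists did less: of 24 genes of the unfolded protein response of the endoplasmic reticulum 9 rose and 2 fell in wild type while 1 rose and 3 fell in knockout, and of 20 cytosolic heat shock genes 7 rose and 2 fell in wild type while 3 rose and 1 fell in knockout. All genes tested rose in 18.9% and fell in 19.0% of cases in wild type, and rose in 10.2% and fell in 9.01% in knockout. Mthfd2, a mitochondrial folate enzyme, was closest, with changes of 3.10 and 1.59 (difference -1.51 ± 0.37, log2 ± SE, adjusted p = 0.0874). Of 23 immediate early genes 19 rose in wild type and 17 in knockout, none fell in either, and Ier5 passed. Egr1, an immediate early transcription factor, had 2.66 and 3.02.

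Many genes of sterol and fat synthesis fell in both genotypes, where 19.0% of all genes fell in wild type and 9.01% in knockout. Of 26 cholesterol genes 17 fell in wild type (65.4%) and 15 in knockout (57.7%), with 1, Insig2, rising in each, and the medians were -1.31 and -1.10. Of 24 lipogenesis genes 15 (62.5%) and 13 (54.2%) fell, with Fasn, fatty acid synthase, at -2.06 and -2.15. No member of either list passed the test of the difference. Fads2, a desaturase, had -1.98 and -0.43 (difference 1.54 ± 0.37, log2 ± SE, adjusted p = 0.0861). Of 36 PPARA targets and fatty acid oxidation genes, 10 rose (27.8%) and 7 fell (19.4%, the share of all genes being 19.0%) in wild type while 15 rose (41.7%, against 10.2%) and 1 fell in knockout, with medians of 0.07 and 0.33. The difference passed for Ppara itself alone. Cyp4a10, a fatty acid hydroxylase and PPARA target, had 1.63 and 2.61, and Acot2, a mitochondrial thioesterase, 2.61 and 2.82.

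Interferon-stimulated genes fell for 43 of 64 members in wild type (67.2%, against 19.0% of all genes) and for 22 in knockout (34.4%, against 9.01%), and 2 rose in each. The medians were -0.68 and -0.43, and the change was smaller in the knockout for 45 of 64 (70.3%, against 62.8% of all genes). The difference passed the test for 2 members, Ifi27 and Ifi27l2a, both positive. On control and on ethanol, 62 of the 64 were higher in the knockout, against 6.40% and 6.13% of all genes. The list's summed level had group medians of 27893 normalised reads on control and 21571 on ethanol in wild type. In the knockout these were 92918 and 72134, and control and ethanol libraries were separate in each genotype. Antigen presentation genes fell for 14 and 11 of 26, with medians of -0.40 and -0.41 and 0 past the test. Of 11 transcripts of mitochondrial DNA 7 rose in wild type (63.6%, against 18.9% of all genes) and 1 in knockout (9.09%, near the 10.2% of all genes), with medians of 0.64 and 0.37 and 0 past the test of the difference. Their median difference of -0.24 was -0.08 without knockout ethanol library 1. The summed level of all 13 listed went from 452130 to 543072 normalised reads on control to 580260 to 809191 on ethanol in wild type. In the knockout it went from 276019 to 375819 to 412061 to 484465, so ethanol libraries were higher without overlap in each genotype. Nuclear genes of the respiratory chain moved little, with medians of -0.18 and -0.24 over 36 members.

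**Figure D4:**
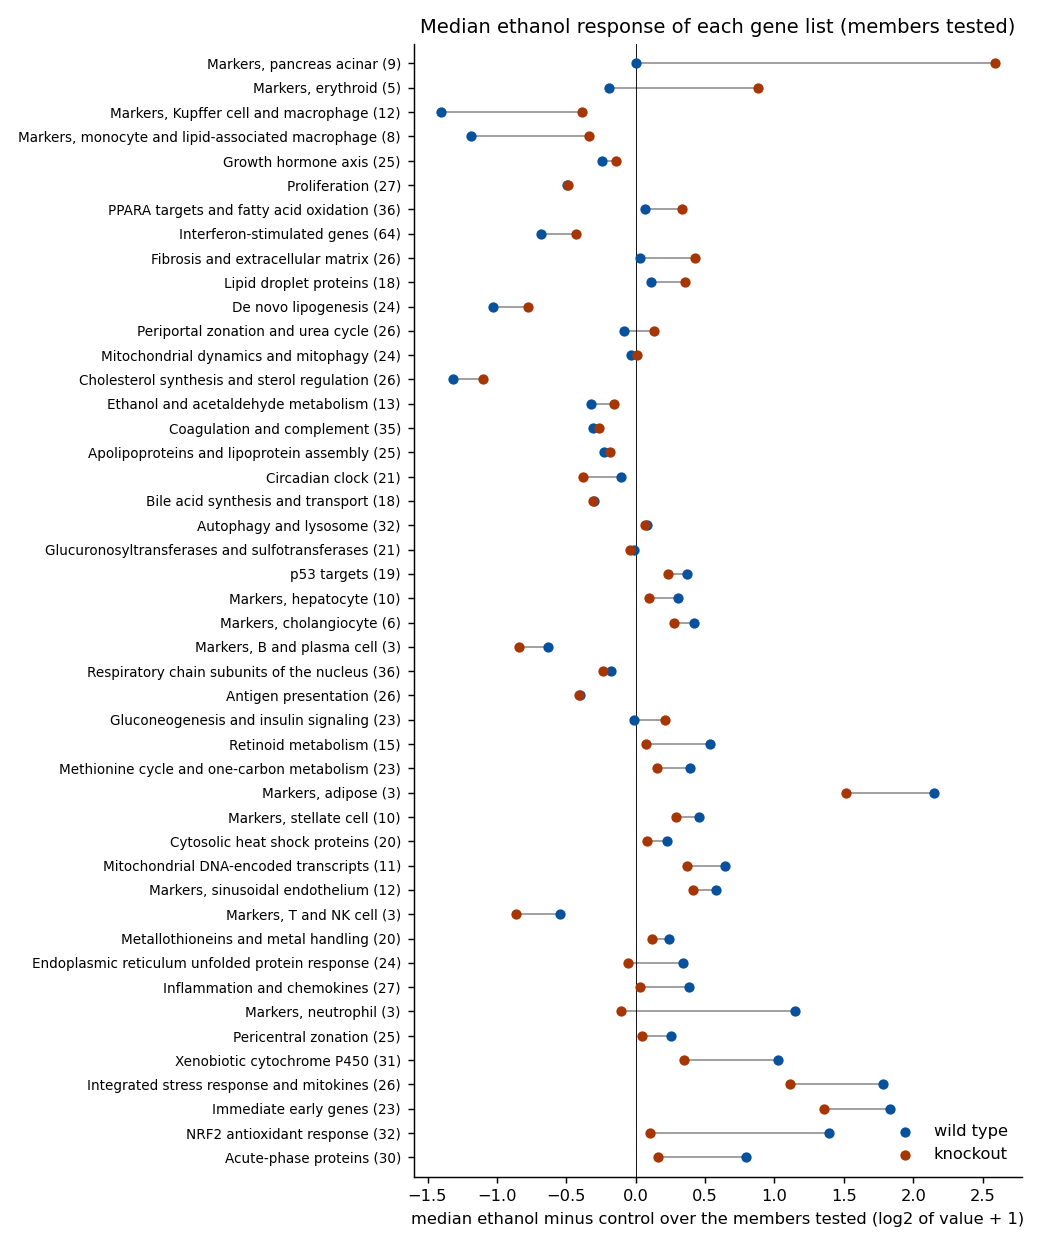
Median log2 change from control to ethanol in wild type (blue) and in knockout (brown) for each gene list with at least 3 members tested, ordered by the median difference, with the number of members in parentheses. NRF2 genes go from 1.39 in wild type to 0.11 in knockout, where 18 of 32 were higher than in wild type on control. Cholesterol genes stay at -1.31 and -1.10, and the pancreas list rests on 1 library.

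Over all genes, ethanol changed 5032 in wild type (38.0%) and 2543 in knockout (19.2%), and 1960 were called in both with the same direction, 39.0% of the wild-type list and 77.1% of the knockout one. A gene called in wild type had the same sign in the knockout in 93.1% of cases, and the median size of its change was 0.739 in wild type and 0.422 in knockout, where the choice of genes favours the wild-type value. For genes called in the knockout the sizes were 0.705 in wild type and 0.673 in knockout. Across the 13256 genes, which are not independent and share libraries and depth, Pearson's r between the wild-type and knockout changes was 0.767 and Spearman's rho 0.716. These 2 changes share no libraries.

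A difference that misses the threshold does not show an equal response, but its interval gives a bound. The 95% interval of the difference lay within 2-fold for 8687 genes (65.5%) and within 1.5-fold for 4085 (30.8%), and wholly beyond 2-fold for 42. The median SE of the difference was 0.24 on the log2 scale, against 0.17 for an ethanol change within a genotype. At an unadjusted p below 0.05, 1772 genes differed, 13.4% of those tested. On the recovered reads edgeR's quasi-likelihood test called 30 genes (0.226%), DESeq2 270 of 12465 (2.17%) and limma-voom 5 (0.0377%), and of the 46 genes 29, 46 and 5 were among them.

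Many calls depended on single libraries. Cyp2a5, Nqo1, Abcc4, Raet1d, Cbr3, Ifi27, Cyp2b10 and Dusp8 stayed called in all 16 fits that left out 1 library, and the other 38 in 2 to 15. Of the 46 genes 8 remained called without knockout ethanol library 1, 9 without knockout ethanol library 4, 12 without wild-type ethanol library 2 and 14 without knockout ethanol library 2, while all 46 remained without wild-type ethanol library 3, where 215 genes were called. All 46 kept their sign in each of these fits, which is little of a check, since the same libraries chose the genes by their differences. Without both knockout ethanol libraries 1 and 4, the ones with pancreas, blood and fat transcripts, 0 genes were called by limma and 1210 differed at an unadjusted p below 0.05, while the sizes of the 46 differences were 0.815 to 1.09 times those with all libraries. With ethanol libraries 3 and 4 alone 0 were called (925 unadjusted) and the sizes were 0.674 to 1.21 times as large, and with libraries 1 and 2 alone 264 were called, 37 of the 46 among them. A term for this split of the ethanol libraries, which was seen in these same data, gave 99 calls, with all 46 included. The term is balanced over the ethanol groups, so it leaves the estimates unchanged and acts on the spread alone. Its calls are no separate check of the 46. The block of same-numbered ethanol libraries, which also leaves the estimates unchanged, called 44 genes, of which 31 were among the 46.

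**Figure D5:**
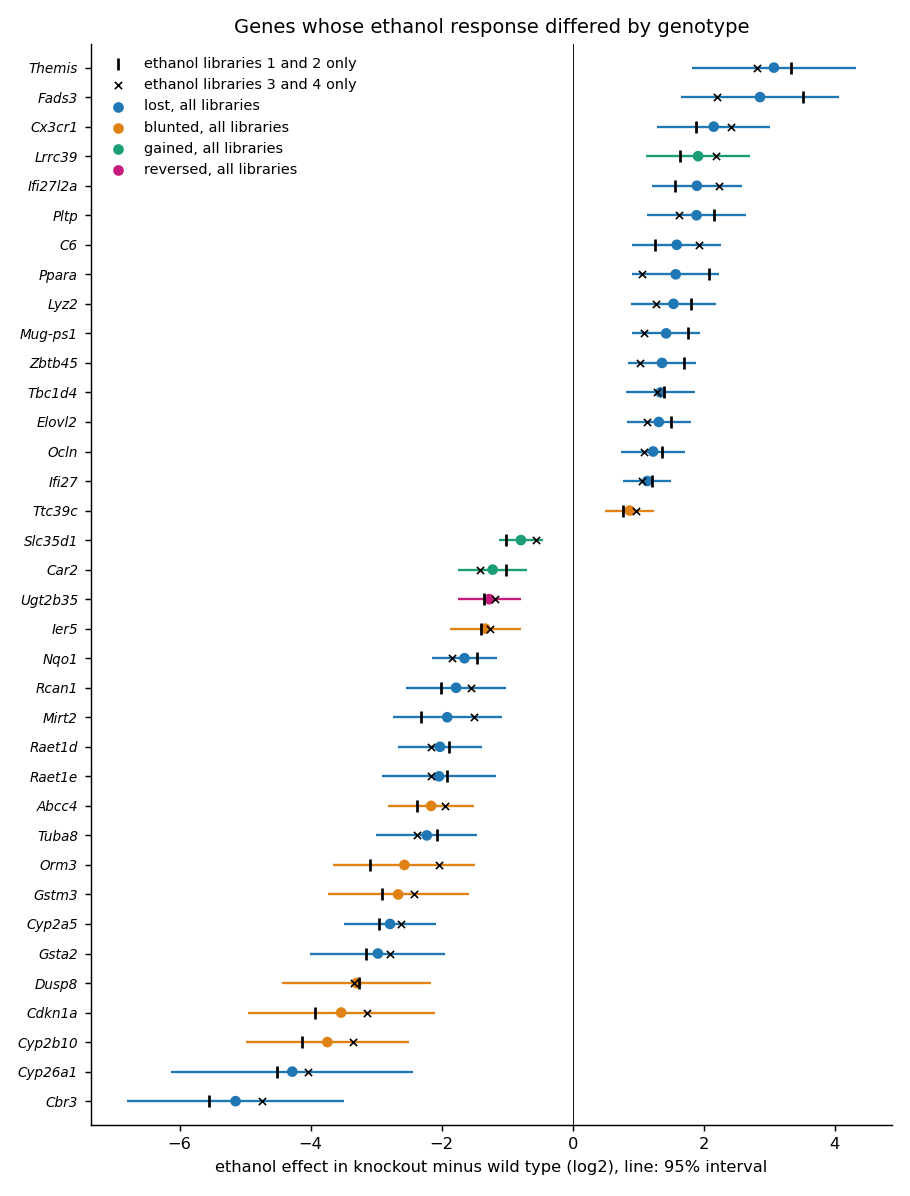
Difference of the ethanol effects (knockout minus wild type, log2) for the 36 of the 46 genes that the naming rule selected, with its 95% interval, coloured by class; ticks and crosses give the estimate with ethanol libraries 1 and 2 only and 3 and 4 only. All 36 estimates keep their sign in both subsets, which are parts of the libraries that chose the genes. With all libraries they run from -5.15 for Cbr3 to 3.07 for Themis.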

How the data were processed

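RNA of mouse liver, in 16 libraries labelled by genotype and treatment, was sequenced as 75-base single reads. The submitters' processing notes name HISAT2 2.1.0.13, HTSeq, edgeR and the build GRCm38. Not given in the sources used here are the scaling tool, the strandedness of the counting and the annotation version. The deposited values are a signal that the authors made by dividing read counts by 1 size factor per library. This was read from the values: all of them (100% within 0.01) were whole reads after multiplying by factors from 0.81 to 1.26, which gave 11425136 to 13864862 reads per library. Of 27288 gene identifiers, 27242 matched a symbol and 46 did not.

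Genes whose values averaged 10 or more were tested on log2(value + 1) with limma 3.58.1 in R 4.3.3, using 4 group means, a mean-variance trend and Benjamini-Hochberg adjustment over 13256 genes. A gene was called at an adjusted p below 0.05. The test was also run on simulated data with independent libraries. These held no genotype difference on control and no shared deviation of ethanol libraries, so they cannot speak to such effects. Ethanol calls in each genotype set the class of a called gene. Alternatives were pseudocounts of 0.25 and 4, a floor of 50 or none, no trend, TMM scaling, a replicate block, each library left out, subsets and a term for the 2 pairs of ethanol libraries, the classes by ratio, and edgeR 4.0.16, DESeq2 1.42.0 and limma-voom on the recovered reads. Deviations from the group means correlated for same-numbered libraries between the 2 ethanol groups (r = 0.115, 0.246, 0.219 and 0.102) and not across all groups. Crosswise correlations were of similar size. Wild-type library 1 with knockout library 2 had 0.176, and 2 with 1 had 0.0975. Wild-type library 3 with knockout library 4 had 0.179, and 4 with 3 had 0.199. A pairing by number is thus given neither by the labels nor by these values. The block in the ethanol groups only was chosen after seeing the data.

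Named genes were the 15 largest positive and 15 largest negative called differences, up to 8 per class, calls of opposite direction, up to 3 members per gene list and Dnm1l. Other called genes, and list members given as examples, were chosen after their values were seen. Of the called genes 1, included in the counts, is not reported here. Members and lists were chosen with earlier results of these data known. The 47 lists, 13 of them of cell markers, overlap. Promoters came from RefSeq.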

Additional observations from a re-analysis of the deposited data

Results flagged for a closer look

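The ethanol effect differed between the genotypes for 46 genes by the test of the difference itself.

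Single libraries stood apart from the other 3 of their group in 19 of 284 groups of 71 named genes, by a gap test that flags about 1 in 20 groups by chance. Among wild-type control libraries these were library 2 for Abcc4 (12.9 normalised reads, the lowest), Tuba8 (26.8), Ifi27l2a (74.6) and Lyz2 (663), library 1 for Raet1d (156), library 3 for Pltp (1165) and Ighm (394), and library 4 for Bmp2 (98.6, the lowest). Among wild-type ethanol libraries they were library 1 for Abcc4 (263, the lowest), library 2 for Gsta2 (755) and Ifi27l2a (13.98), and library 4 for Bag3 (565, the lowest). In the knockout on control they were library 3 for Cyp26a1 (77.3, the lowest) and Mt2 (988) and library 4 for Creld2 (529, the lowest). In the knockout on ethanol they were library 1 for the pancreas gene Ctrb1 (2563), library 2 for Rrm2 (241), and library 4 for Cfd (120.3) and Col1a1 (255).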

How the results depend on the processing

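The count of 46 genotype-dependent genes was 270 with DESeq2, 30 with edgeR, 5 with limma-voom, 16 without the mean-variance trend and 117 at an adjusted p below 0.1. It was 264 with ethanol libraries 1 and 2 only, 0 with libraries 3 and 4 only, 99 with a term for that split, 0 without knockout ethanol libraries 1 and 4, and 8 to 215 when 1 library was left out. TMM scaling, both pseudocounts and both floors gave 42 to 49. Ethanol calls numbered 3164 in wild type and 1370 in knockout with libraries 3 and 4 only, and 1003 in knockout without ethanol libraries 1 and 4. Leaving out 1 library gave 4251 to 5289 in wild type and 1745 to 2947 in knockout. Lost and blunted genes made up 100% of the calls of limma-voom and 83.8% to 100% when 1 library was left out. No named gene changed direction under any of these alternatives, although the term for the split could not change an estimate. The cause of these changes was not tested, beyond fewer samples in the subsets.

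With the replicate number as a block the count was 24, with 95.8% of them lost or blunted, and the ethanol counts within each genotype stayed within 1.5 times those without it. The labels do not say that a number pairs samples. Same-numbered libraries deviated together only between the ethanol groups, and there differently numbered ones within each pair, 1 and 2 or 3 and 4, did so too. Of 36 named called genes 20 lost their call under this block. A block in the ethanol groups only gave 44 calls, with 31 of the 46 genes among them and 15 of the 46 no longer called. This block is balanced over the ethanol groups, so it leaves every estimate as it was and cannot change a direction.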
